A study of Homo sapiens with 6 samples.

Results

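The forkhead (FOX) genes encode a family of transcription factors that share a winged-helix DNA-binding domain. In the table of gene counts, 45 genes carried a symbol made of FOX, a letter from A to S and a number, out of 46427 genes in all. RNA was sequenced from Hs578T, a triple-negative breast cancer cell line, in 3 libraries of cells that stably express a control shRNA (shCTRL) and 3 libraries of cells that stably express CCN3 shRNA #2 (shCCN3). Both cell lines were made by retroviral transduction of a pSUPER vector and were grown in the same serum-containing medium, so that both carry a vector and an shRNA, and each group rests on a single shRNA and a single transduced line. The replicates are described as independent biological replicates of each line, without a statement of what separated them.

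The FOX letter marks a subfamily, and the subfamilies have separate roles. FOXM1 drives genes of the G2 and M phases in dividing cells. FOXO factors turn on genes of cell cycle arrest, stress defence and apoptosis, and AKT and SGK kinases hold them in the cytoplasm by phosphorylation. FOXA factors open chromatin for hormone receptors in luminal breast cells, whereas FOXC1, FOXC2 and FOXQ1 are known from basal-like breast cancer and from the epithelial to mesenchymal transition (EMT). FOXF1, FOXF2 and FOXL1 are mesenchymal factors that respond to Hedgehog signals during development.

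Library totals ranged from 56159110 to 68393177 counts. Levels are given in CPM, the counts of a gene scaled to library size with TMM normalization factors. Before these factors, 3 counts equal 0.0439 to 0.0534 CPM. CCN3, the target of the shRNA, was at 101 ± 2.43 CPM with the control shRNA and 47.0 ± 0.469 CPM after knockdown (SD, n = 3 each), with no overlap between the groups. The marker genes fitted the label of a mesenchymal, triple-negative line in part. ESR1, CDH1 and EPCAM were at or near 0 in every library, and VIM was at 7775 ± 186 CPM in shCTRL cells (SD, n = 3). The receptor genes PGR and ERBB2 were at 2.86 ± 0.332 and 77.9 ± 5.49 CPM in shCTRL cells (SD, n = 3 each). These are mRNA levels without a threshold for a positive line, and they do not measure receptor protein, so they do not decide the label. Leukocyte markers summed to 0.422 to 0.827 CPM in shCTRL and 0.468 to 0.812 CPM in shCCN3 libraries, with 2 of the 4 genes at 3 counts or fewer in every library. The 4 endothelial markers summed to 3.90 to 5.41 CPM in shCTRL and 3.56 to 4.43 CPM in shCCN3 libraries, and CDH5 among them was at 0. ShCCN3 replicate 2 stood further from its group than the other libraries did, with chi-square values of 34.7 and 42.5 per degree of freedom against its partners, where the other pairs gave 6.75 to 20.7. The 5 epithelial markers summed to 174 to 192 CPM in shCTRL and 226 to 278 CPM in shCCN3 libraries, most of it KRT18, and the 5 mesenchymal markers to 11064 to 11096 and 10648 to 10832 CPM. The part of these shifts in the FOX results was not tested.

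Of the 45 FOX genes, 27 passed the filter on low counts and 18 did not. No read was counted in any library for 11 genes, among them FOXB1, FOXB2, FOXE1, FOXI1, FOXI2, FOXI3, FOXL3, FOXN1, FOXN4 and FOXR1. For these, 3 counts in a library bound the level at 0.0534 CPM or less before TMM factors, by counting error only. FOXA2, FOXE3, FOXJ1, FOXL2, FOXP3, FOXR2 and FOXS1 had some reads, with 12 counts in a library as the highest value. Among the 27 genes tested, 23 reached a mean of 1 CPM in at least 1 group, and FOXA3, FOXD3, FOXD4 and FOXH1 stayed below it.

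On the scale of CPM per kilobase of exon, which adjusts for exon length, FOXM1 had the highest level of the family in shCTRL cells, at 64.7 ± 0.909 (SD, n = 3). FOXC2, which acts in mesenchyme and lymphatic development, followed at 31.5 ± 1.13, FOXQ1 at 22.3 ± 0.120, FOXF2 at 18.5 ± 0.911 and FOXD1 at 11.9 ± 0.245 (SD, n = 3 each). The ranges of these 5 genes over the shCTRL libraries were separate from each other. FOXK2, FOXJ3 and FOXP4 came next at 8.77, 8.36 and 8.20, where the range of FOXJ3 overlapped those of FOXK2 and FOXP4, which were separate from each other. The order was different in shCCN3 cells: FOXM1 at 63.1 and FOXC2 at 46.0 still led, but FOXD1 at 12.4 and FOXP4 at 12.3 came next with overlapping ranges, FOXF2 stood at 9.91, and FOXQ1 had moved from rank 3 to rank 9, at 3.89. FOXA1, the luminal pioneer factor, was at 0.756 ± 0.0834 in shCTRL and 0.871 ± 0.0882 in shCCN3 cells on the same scale (SD, n = 3 each). These levels rest on exon lengths of GENCODE release 29, and in each group 14 of the 27 genes overlapped over the libraries with the next gene in the order.

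**Figure D1:**
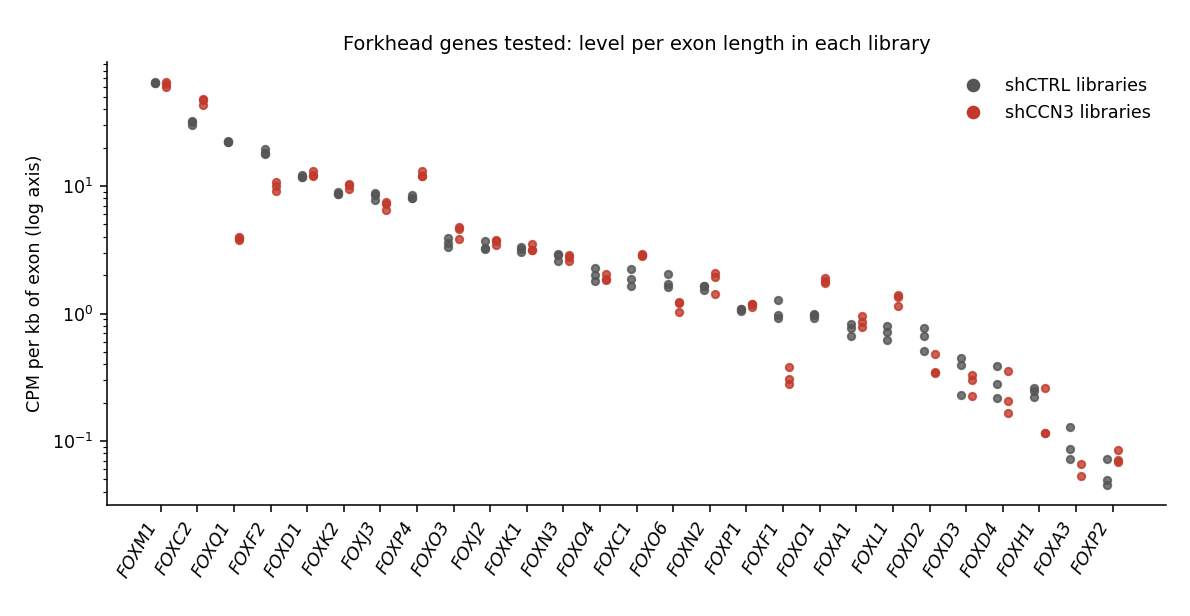
CPM per kilobase of exon (log axis) of the 27 FOX genes tested, with 1 point per library in shCTRL (grey) and shCCN3 (red) cells, ordered by the shCTRL mean. FOXM1 leads in both groups near 64, FOXQ1 drops from 22.3 to 3.89, and 1 shCCN3 library with 0 counts of FOXA3 is not drawn.

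CCN3 knockdown cells had a different FOX expression pattern from control cells, with FOXQ1, FOXF1 and FOXF2 lower and FOXO1, FOXL1, FOXC1, FOXP4 and FOXC2 higher. With edgeR's quasi-likelihood test and Benjamini-Hochberg adjusted p-values across 17419 genes, 13 of the 27 FOX genes had an adjusted p under 0.05. This is 48.1% of those tested, beside 33.4% of all genes tested. In shCCN3 cells 7 FOX genes were higher (16.2% of all genes tested) and 6 were lower (17.3% of all genes tested). The groups did not overlap for 14 of the 27 genes, where 46.3% of all genes tested did not overlap. The median log2 fold change of the 27 genes was 0.04, and that of all genes tested was 0.01, so the family showed no common direction. Of the 13 genes called, FOXQ1 and FOXF1 changed at least 2-fold and the other 11 changed less. Without shCCN3 replicate 2 the count was 13 again, with 8 higher and 5 lower.

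**Figure D2:**
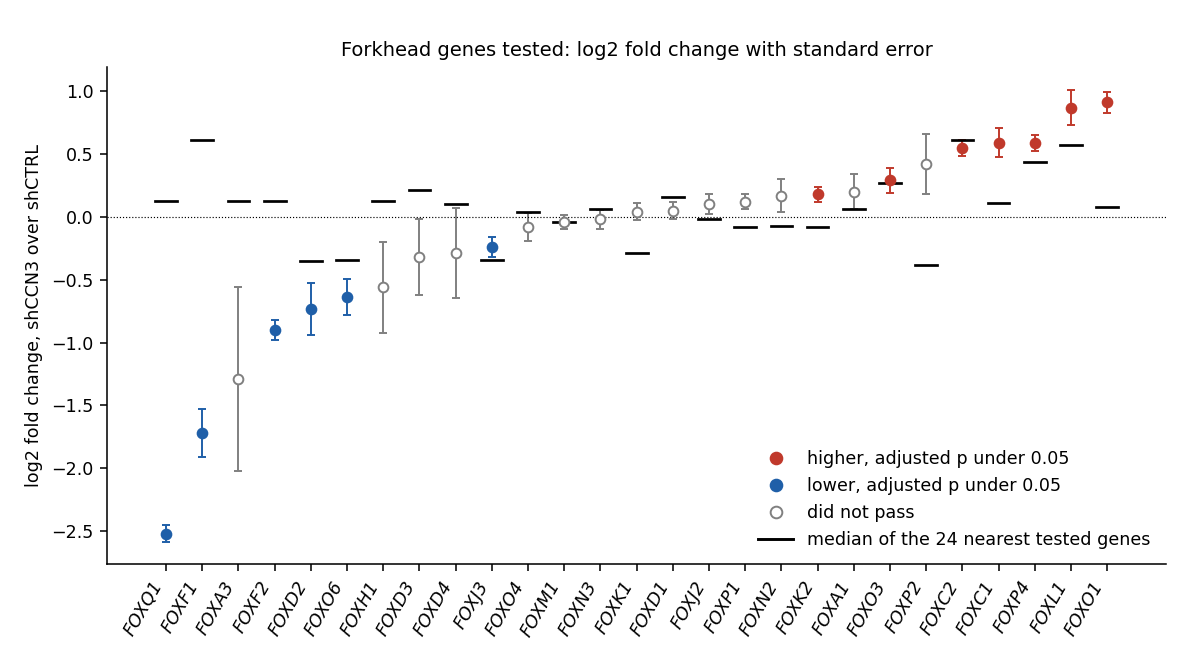
Log2 fold change (shCCN3 over shCTRL) with its standard error for the 27 FOX genes tested, with black bars for the median of the 24 nearest tested genes. The values run from -2.52 for FOXQ1 to 0.91 for FOXO1, and FOXC2 and FOXO3 sit on the bars of their neighbours.

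FOXQ1, a factor known to repress E-cadherin and to promote EMT, fell furthest of the family. It was at 51.9, 51.6 and 51.3 CPM in the shCTRL libraries and at 9.24, 8.67 and 9.02 CPM in the shCCN3 libraries. The libraries of a group lay within 1 CPM of each other and the groups were far apart. The level was 5.74-fold lower in shCCN3 cells, at a log2 fold change of -2.52 (standard error 0.066, edgeR adjusted p = 4.22e-08), and it stayed between -2.54 and -2.50 with each library left out in turn. For this gene, as for each FOX gene named without overlap, the two-sided p of an exact permutation test was 0.1, and no smaller p is possible with 3 libraries against 3.

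FOXF2 and FOXF1, a pair of closely related mesenchymal factors, both fell. FOXF2 was at 44.1, 47.8 and 43.9 CPM in shCTRL and 26.1, 24.4 and 22.4 CPM in shCCN3 libraries, a log2 fold change of -0.90 (standard error 0.078, edgeR adjusted p = 3.12e-05). FOXF1 was at a lower level, with 4.5, 3.41 and 3.22 CPM in shCTRL and 1.07, 1.33 and 0.985 CPM in shCCN3 libraries. Its counts were 309, 214 and 216 against 74, 74 and 63. Every shCCN3 library was below every shCTRL library for both genes. The log2 fold change of FOXF1 was -1.72 (standard error 0.191, edgeR adjusted p = 0.000143), which is 3.29-fold lower, and it stayed between -1.84 and -1.55 with each library left out.

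FOXC1 and FOXC2, which share nearly the same DNA-binding domain and act together in mesoderm, both rose. FOXC1 was at 8.77, 7.30 and 6.49 CPM in shCTRL and 11.2, 11.6 and 11.3 CPM in shCCN3 libraries, a log2 fold change of 0.59 (standard error 0.115, edgeR adjusted p = 0.00357). FOXC2 was at 94.1, 91.8 and 87.7 CPM in shCTRL and 138, 126 and 136 CPM in shCCN3 libraries, and the log2 fold change was 0.55 (standard error 0.062, edgeR adjusted p = 0.000161). In both genes the lowest shCCN3 library lay above the highest shCTRL library. FOXL1, known from the mesenchyme of the gut, was at 2.66, 2.34 and 2.99 CPM in shCTRL and 5.05, 5.29 and 4.31 CPM in shCCN3 libraries. Again the groups were separate, and the log2 fold change was 0.87 (standard error 0.141, edgeR adjusted p = 0.00133).

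**Figure D3:**
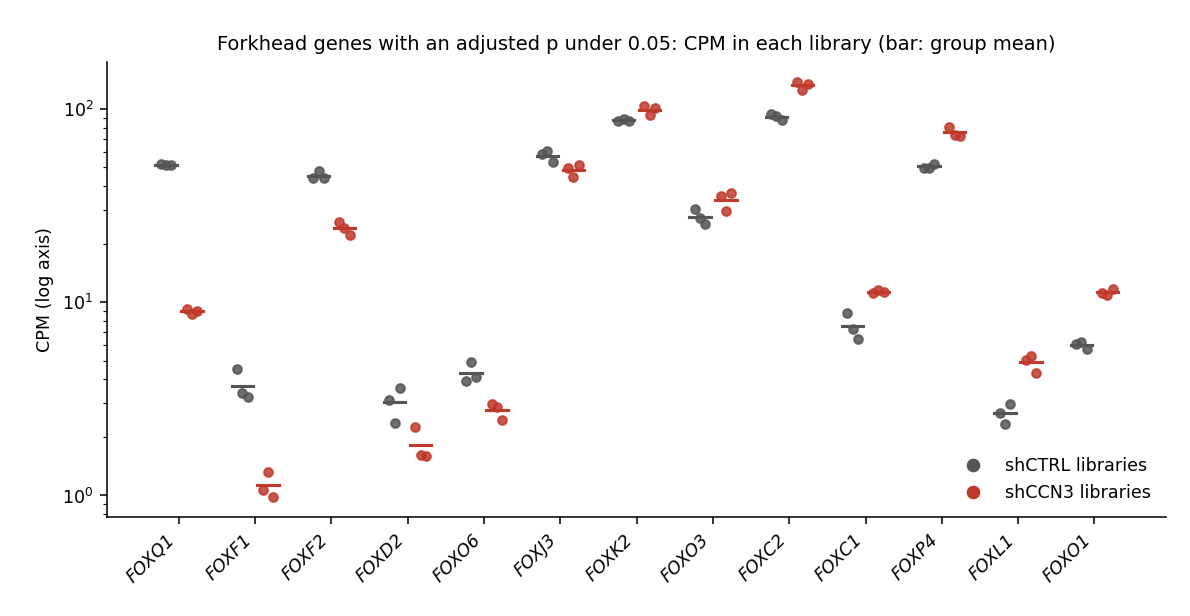
CPM (log axis) in each library of the 13 FOX genes with an adjusted p under 0.05, ordered by log2 fold change, with a bar at each group mean. FOXQ1 drops from near 51.6 to 8.98 CPM, and FOXO3 is the only gene of the 13 whose shCTRL (grey) and shCCN3 (red) points overlap.

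These 6 genes lie in 2 gene clusters, which are known to descend from the duplication of an ancestral FOX cluster. On chromosome 6 (GRCh38.p14, plus strand), FOXQ1 runs from 1312098 to 1314758, FOXF2 from 1389576 to 1395603 and FOXC1 from 1609915 to 1613897, a span of 301.8 kb. On chromosome 16, also on the plus strand, FOXF1 runs from 86510527 to 86515422, FOXC2 from 86566829 to 86569728 and FOXL1 from 86578549 to 86583478, a span of 73.0 kb. In both clusters the FOXF gene was lower and the FOXC gene was higher in shCCN3 cells. The clusters were singled out after the values were seen. The promoters of the chromosome 6 genes are shown because these neighbours moved in opposite directions, as RefSeq sequences of GRCh38.p14 on the plus strand from 250 bases before to 50 bases after the start, chr6:1311848-1312147 for FOXQ1, chr6:1389326-1389625 for FOXF2 and chr6:1609665-1609964 for FOXC1. Capitals mark matches to a CCAAT box (CCAAT, or ATTGG on the other strand) or to the core of a TEAD site (GGAATG or CATTCC).

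FOXQ1: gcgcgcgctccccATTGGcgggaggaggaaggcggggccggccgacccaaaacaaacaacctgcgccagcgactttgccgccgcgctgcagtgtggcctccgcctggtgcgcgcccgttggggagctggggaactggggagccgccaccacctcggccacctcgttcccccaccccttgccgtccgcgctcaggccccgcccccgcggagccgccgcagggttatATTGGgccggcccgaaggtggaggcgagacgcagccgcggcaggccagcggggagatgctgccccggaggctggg
FOXF2: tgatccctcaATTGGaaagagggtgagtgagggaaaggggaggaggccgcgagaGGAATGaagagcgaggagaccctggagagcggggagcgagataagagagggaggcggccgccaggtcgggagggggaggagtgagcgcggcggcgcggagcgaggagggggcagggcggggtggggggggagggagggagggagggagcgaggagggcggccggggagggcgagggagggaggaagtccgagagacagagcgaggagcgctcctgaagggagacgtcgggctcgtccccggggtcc
FOXC1: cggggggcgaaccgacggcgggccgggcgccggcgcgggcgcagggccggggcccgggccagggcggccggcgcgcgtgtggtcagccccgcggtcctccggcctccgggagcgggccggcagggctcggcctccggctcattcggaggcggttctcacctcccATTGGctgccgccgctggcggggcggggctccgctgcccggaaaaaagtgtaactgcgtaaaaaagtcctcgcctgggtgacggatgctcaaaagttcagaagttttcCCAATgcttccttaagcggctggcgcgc

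FOXQ1 and FOXC1 each held 2 CCAAT boxes in this window, although the former fell and the latter rose, and FOXF2 held 1. A CCAAT box was present in 34.6% of all 35116 promoters of the same length. FOXF2 also held a TEAD core, found in 14% of all promoters. None of the 3 windows matched a forkhead motif (TGTTTAC or GTAAACA, in 3.42% of all promoters), a GLI core (ACCACCCA or TGGGTGGT, in 1.25%), a TCF/LEF motif (CTTTGAT or ATCAAAG, in 2.62%) or an AP-1 motif (TGANTCA, the same on both strands, in 7.71%), which says only that these letters were not in these windows. The GC content was 74.7% for FOXQ1, 71.0% for FOXF2 and 72.7% for FOXC1, beside a median of 58.7% over all promoters. The promoter table held 34 of the 45 FOX genes, and FOXF1, FOXC2 and FOXL1 were missing from it.

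Near FOXQ1, the lncRNA LOC105374879 was also lower in shCCN3 cells, and FOXC1 was the only one of the 7 tested genes of the window with a positive log2 fold change. Of the 7 genes tested within 500 kb of the chromosome 6 cluster, 4 were not FOX genes, and their median log2 fold change was -0.76, with 1 of the 4 called. LOC105374879, at 1284936 to 1294501 upstream of FOXQ1, had 548, 419 and 459 counts in shCTRL and 242, 144 and 206 counts in shCCN3 libraries, a log2 fold change of -1.20 (standard error 0.140, edgeR adjusted p = 0.00019). LOC105374880, which spans the stretch between FOXQ1 and FOXF2 and overlaps the start of FOXF2, had a log2 fold change of -0.49 that did not pass (edgeR adjusted p = 0.0637), and GMDS, just beyond FOXC1, one of -0.13 (edgeR adjusted p = 0.232). LINC01622, with 25 counts or fewer in each library, was at -1.04 and did not pass either (edgeR adjusted p = 0.119). In a wider window the picture was different: the median was 0.13 over the 24 tested genes nearest to FOXQ1 and 0.34 over all 891 genes tested on chromosome 6. The log2 fold change of FOXQ1 minus the median of its neighbours was -2.65, and that of FOXF2 was -1.03.

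At the chromosome 16 cluster, FOXF1 went against a region that was higher. The 24 tested genes nearest to FOXF1 and to FOXC2 had medians of 0.61 each on the log2 scale, whereas the chromosome as a whole had one of 0.01. MTHFSD, which lies between FOXF1 and FOXC2, had a log2 fold change of 0.65 (standard error 0.086, edgeR adjusted p = 0.000425). FOXC2 minus the median of its neighbours was -0.06, FOXL1 minus its own was 0.30, and FOXF1 minus its own was -2.32. FENDRR, the lncRNA that starts beside FOXF1 on the opposite strand, had 5, 0 and 16 counts in shCTRL and 0 counts in all 3 shCCN3 libraries, too few to be tested. FOXC2-AS1, which overlaps FOXC2, had a log2 fold change of 0.51 (edgeR adjusted p = 0.0895). The part of the region in the rise of FOXC2 and FOXL1 was not tested. Whether counting used the strand is not given in the sources used here, so reads of FOXC2 and FOXC2-AS1, and of FOXF2 and LOC105374880, cannot be told apart where they overlap.

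**Figure D4:**
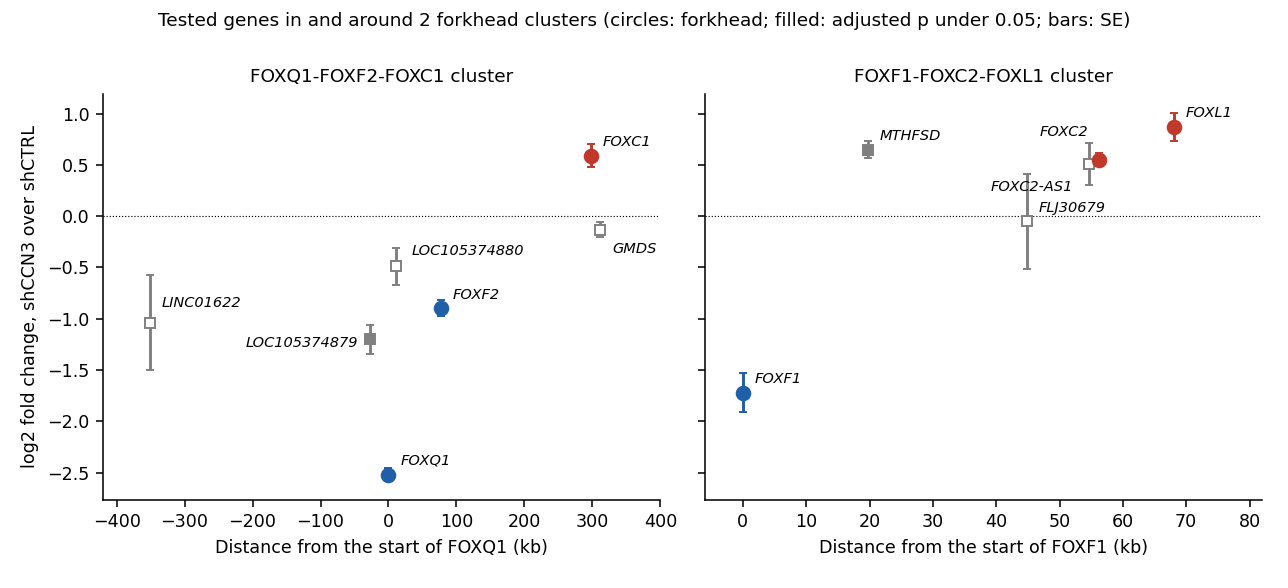
Log2 fold change (shCCN3 over shCTRL) with standard error of the tested genes in and around the 2 FOX clusters, against the distance in kb from the start of FOXQ1 (left) or FOXF1 (right). FOX genes are circles and other genes squares, filled where the adjusted p is under 0.05. FOXQ1 at -2.52 and FOXF1 at -1.72 lie at the bottom, and FOXC1 at 0.59 and FOXC2 at 0.55 lie above 0.

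Of the FOXO subfamily, FOXO1 rose, FOXO6 fell, and FOXO3 rose only narrowly. FOXO1 was at 6.11, 6.24 and 5.73 CPM in shCTRL and 11.2, 10.9 and 11.8 CPM in shCCN3 libraries, so the groups were well apart. It was 1.87-fold higher, and the log2 fold change was 0.91 (standard error 0.087, edgeR adjusted p = 5.93e-05), and its 24 nearest tested genes on chromosome 13 had a median of 0.08. FOXO6, a member best known from the brain, was at 3.91, 4.92 and 4.10 CPM in shCTRL and 2.96, 2.88 and 2.45 CPM in shCCN3 libraries, without overlap. Its log2 fold change was -0.64 (standard error 0.142, edgeR adjusted p = 0.00726), and its neighbours on chromosome 1 had a median of -0.34.

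FOXO3 was at 30.3, 27.5 and 25.4 CPM in shCTRL and 35.5, 29.6 and 36.8 CPM in shCCN3 libraries. ShCCN3 replicate 2 lay below shCTRL replicate 1, and the groups overlapped. The log2 fold change was 0.29 (standard error 0.1, edgeR adjusted p = 0.0492), next to a median of 0.27 for its neighbours and 0.34 for chromosome 6. The call was lost without shCTRL replicate 2 (edgeR adjusted p = 0.14), shCTRL replicate 3 (0.159), shCCN3 replicate 1 (0.152) or shCCN3 replicate 3 (0.158), and with a replicate block (0.0658). FOXO3B, a near-identical copy on chromosome 17, was at 5.45 ± 0.792 and 5.78 ± 0.897 CPM (SD, n = 3 each), and with the counts of both genes summed the log2 fold change was 0.26 (edgeR adjusted p = 0.0797). FOXO4 did not pass, with a log2 fold change of -0.08 (edgeR adjusted p = 0.639).

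Genes that FOXO factors are known to activate or repress were mostly higher in shCCN3 cells, which is a description, since the list was drawn up from textbook knowledge with earlier results of these data known. Of 33 such genes tested, 20 rose and 3 fell, and the median log2 fold change was 0.41, beside 0.01 for all genes tested. The list pools activated and repressed genes, so these values do not give a direction of FOXO activity. The share called was 69.7%, beside 33.4% of all genes tested. TNFSF10, which encodes the death ligand TRAIL and is also an interferon-stimulated gene, went from 11, 4 and 7 counts in shCTRL to 82, 87 and 104 counts in shCCN3 libraries, a log2 fold change of 3.70 (standard error 0.332, edgeR adjusted p = 3.81e-05). BBC3, which encodes the pro-apoptotic protein PUMA and is also a p53 target, had a log2 fold change of 1.30. SPRY2, a feedback inhibitor of receptor tyrosine kinase signaling, and SESN3, a stress-induced inhibitor of mTORC1, fell by 1.12 and 0.62 on the log2 scale. Many of these genes also answer to p53, NF-kB or stress kinases, and the part of FOXO factors in their change was not tested.

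Of 27 tested genes that control FOXO activity, 7 rose and 2 fell, with a median log2 fold change of 0.09. This is 33.3% called, near the background of 33.4%. MAPK8, which encodes the kinase JNK1, had a log2 fold change of 0.93 (standard error 0.062, edgeR adjusted p = 6.26e-06). The 2 that fell were PIK3R3, a regulatory subunit of PI3K, at -0.37 and MAPKAP1, a subunit of mTORC2, at -0.29. The kinases AKT1 and AKT2 did not pass, with log2 fold changes of -0.06 and -0.00 (edgeR adjusted p = 0.476 and 0.958).

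**Figure D5:**
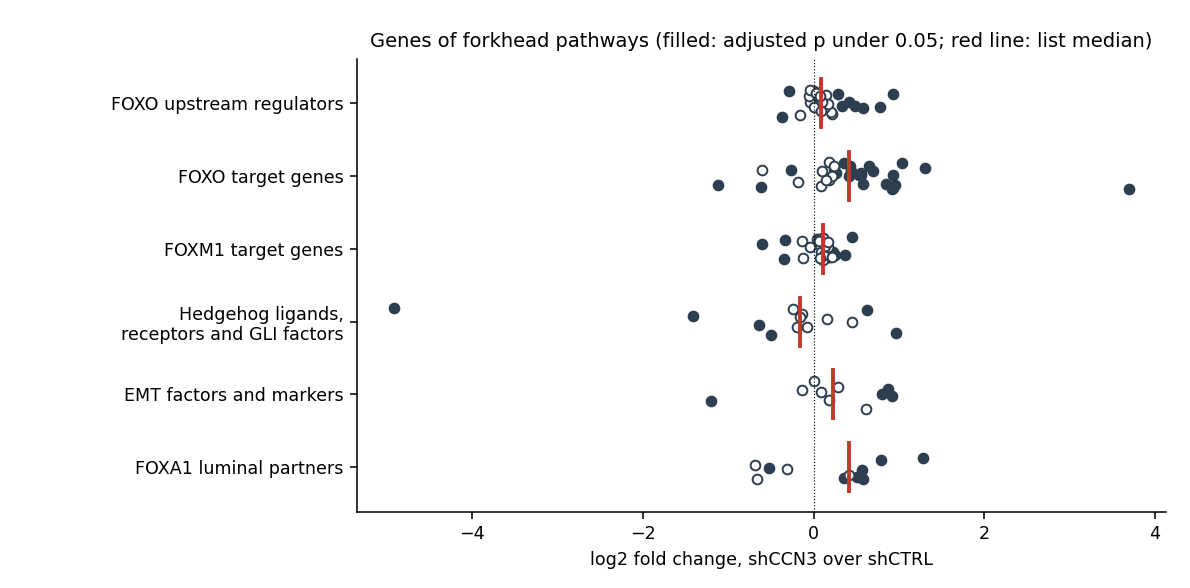
Log2 fold change (shCCN3 over shCTRL) of the tested genes of 6 lists tied to FOX factors, 1 point per gene, filled where the adjusted p is under 0.05, with a red line at each list's median. The FOXO targets have a median of 0.41, and the Hedgehog genes run from -4.92 for PTCH1 to 0.96 for BOC.

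FOXP4, a repressor of the FOXP subfamily that acts in lung and gut development, rose, whereas its relatives did not pass the test. FOXP4 was at 49.6, 49.7 and 52.4 CPM in shCTRL and 80.9, 73.9 and 73.1 CPM in shCCN3 libraries. The groups were separate, and the log2 fold change was 0.59 (standard error 0.064, edgeR adjusted p = 0.00013), next to a median of 0.44 for its 24 nearest tested genes on chromosome 6. FOXP1, a regulator of B cells and of other tissues, was at 39.3 ± 0.799 and 42.7 ± 1.54 CPM (SD, n = 3 each), without overlap but with an edgeR adjusted p of 0.162. FOXP2, a factor known from speech and language, was near 1 CPM, and its log2 fold change of 0.42 did not pass (edgeR adjusted p = 0.213), although its 24 neighbours on chromosome 7 had a median of -0.38.

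FOXK2, FOXJ3 and FOXD2 had calls that depended on single libraries. FOXK2, a repressor linked to autophagy and metabolism, was at 86.6, 89.1 and 87.2 CPM in shCTRL and 104, 94.0 and 101 CPM in shCCN3 libraries, a log2 fold change of 0.18 (standard error 0.060, edgeR adjusted p = 0.0406). FOXJ3, which is known from muscle, was at 58.5, 60.7 and 53.6 CPM in shCTRL and 49.9, 44.6 and 51.7 CPM in shCCN3 libraries, a log2 fold change of -0.24 (standard error 0.077, edgeR adjusted p = 0.0387). Its neighbours on chromosome 1 had a median of -0.34. Neither gene's groups overlapped, but both lost their call with a replicate block (edgeR adjusted p = 0.134 for FOXK2 and 0.0918 for FOXJ3). Without any library other than shCCN3 replicate 2, the edgeR adjusted p of FOXK2 lay above 0.05, at 0.117, 0.111 and 0.111 without shCTRL replicates 1, 2 and 3 and at 0.154 and 0.112 without shCCN3 replicates 1 and 3. For FOXJ3 it was 0.109 and 0.17 without shCTRL replicates 1 and 2, and 0.0829 and 0.0556 without shCCN3 replicates 1 and 2.

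FOXD2 was at 3.14, 2.37 and 3.60 CPM in shCTRL and 2.26, 1.62 and 1.61 CPM in shCCN3 libraries, where shCTRL replicate 2 and shCCN3 replicate 1 came close to each other. The log2 fold change was -0.73 (standard error 0.206, edgeR adjusted p = 0.0232), next to a median of -0.35 for its 24 nearest tested genes on chromosome 1. The edgeR adjusted p was 0.0694, 0.0862 and 0.0772 without shCTRL replicate 1, shCTRL replicate 3 and shCCN3 replicate 3. FOXD2-AS1, a lncRNA that is transcribed away from FOXD2, moved the other way, from 5.57 ± 0.205 to 6.86 ± 0.125 CPM (SD, n = 3 each), with a log2 fold change of 0.30 (edgeR adjusted p = 0.0329). This lncRNA lost its call without shCTRL replicate 1, shCTRL replicate 2 or shCCN3 replicate 1. It was the only one called of 8 tested genes on a list of lncRNAs and copies tied to FOX genes. The list did not hold LOC105374879, the called lncRNA near FOXQ1.

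FOXM1 mRNA, the highest of the family, did not pass the test, with 317 ± 4.45 CPM in control and 309 ± 13.5 CPM in knockdown cells (SD, n = 3 each) and a log2 fold change of -0.04 (edgeR adjusted p = 0.669). It stayed between -0.07 and -0.00 with each library left out in turn. Of 32 tested FOXM1 targets of the G2 and M phases, 6 rose and 3 fell, which is 28.1% called beside 33.4% of all genes, with a median log2 fold change of 0.11. CDC25B, a phosphatase that starts mitosis, had a log2 fold change of -0.61 and KIF2C, a kinesin that depolymerizes microtubules, one of -0.35. MYBL2, which works in the same complex as FOXM1, and TOP2A, the DNA topoisomerase of dividing cells, were at 0.45 and 0.37. The 24 nearest tested genes had medians of -0.59 for CDC25B, -0.33 for KIF2C, 0.07 for MYBL2 and -0.05 for TOP2A. The count of 9 rested on single libraries, with 18 genes without shCCN3 replicate 2, 4 genes without shCTRL replicate 2 or shCCN3 replicate 1, and 5 genes without shCTRL replicate 3.

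The other FOX genes above 1 CPM that did not pass were FOXA1, FOXD1, FOXJ2, FOXK1, FOXN2 and FOXN3, besides FOXM1, FOXO4, FOXP1 and FOXP2. Over these 10 genes the log2 fold changes ran from -0.08 to 0.42 and the edgeR adjusted p-values from 0.162 to 0.842. FOXD1, a factor of kidney stroma, was at 31.3 ± 0.643 and 32.5 ± 1.81 CPM (SD, n = 3 each). FOXK1, a relative of FOXK2, lies on chromosome 7, where the median log2 fold change of the other tested genes was -0.43, and its own was 0.04. FOXN2 overlapped between the groups in all 6 libraries together, but passed without shCCN3 replicate 2, at a log2 fold change of 0.31 (edgeR adjusted p = 0.0211). Among the 4 tested genes under 1 CPM, FOXA3 had the lowest log2 fold change, -1.29, with a standard error of 0.734 and an edgeR adjusted p of 0.218. FOXD3 and FOXD4 had log2 fold changes of -0.32 and -0.29 that did not pass, and FOXD4 has near-identical copies whose reads may be mixed with its own. FOXH1, at -0.56, passed without shCCN3 replicate 3, at -1.07 (edgeR adjusted p = 0.0387).

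Genes of the pathways in which FOXF, FOXC, FOXQ and FOXA factors act moved in both directions. Of 13 tested Hedgehog ligands, receptors and GLI factors, 4 fell and 2 rose (46.2% called, beside 33.4% of all genes), with a median log2 fold change of -0.16. PTCH1, the Hedgehog receptor and a standard readout of the pathway, had 191, 140 and 160 counts in shCTRL and 4, 3 and 8 counts in shCCN3 libraries. The co-receptor GAS1 also fell, with a log2 fold change of -1.41, while the co-receptor BOC and the decoy HHIP rose, with values of 0.96 and 0.63. GLI1, itself a target of the pathway, was at 0.712 CPM in shCTRL cells and had a log2 fold change of 0.45 that did not pass (edgeR adjusted p = 0.153).

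Of 10 tested EMT factors and markers, 3 rose and 1 fell, which is 40.0% called beside 33.4% of all genes. The median log2 fold change was 0.23, beside 0.01 for all genes tested. SNAI2 and CDH2, both mesenchymal, had log2 fold changes of 0.92 and 0.87, and the mesenchymal factor TWIST2 fell by 1.20 on the log2 scale. Without shCCN3 replicate 2 the count was 7. CDH1, the gene that FOXQ1 is known to repress, was at 0.0451 ± 0.0254 CPM in control and 0.0711 ± 0.0703 CPM in knockdown cells (SD, n = 3 each). It had 2, 2 and 5 counts in shCTRL and 5, 0 and 9 counts in shCCN3 libraries, too few to be tested. No large rise was seen, and a smaller change was not detectable at this depth. Of 11 tested luminal partners of FOXA1, 6 rose and 1 fell (63.6% called, beside 33.4% of all genes), with a median of 0.41, beside 0.01. TFAP2A, a transcription factor of luminal cells, had a log2 fold change of 0.79, the keratin KRT8 was at -0.52, and ESR1 was at 0.0205 CPM in shCTRL cells.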

How the data were processed

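RNA-seq libraries of 3 shCTRL and 3 shCCN3 samples of Hs578T cells were prepared with a stranded mRNA kit. The deposited table holds raw counts of 46427 genes as the authors made them, without normalization. The submitters' processing notes name bcl2fastq 2.20.0, Trimmomatic, HISAT2 2.1.0, StringTie 2.1.3d, DESeq2 and GRCh38. The strand setting and the annotation are not given in the sources used here. Groups and replicate numbers were taken from the sample labels. From the counts, CPM with TMM factors were computed, and genes were tested with edgeR 4.0.16 in R 4.3.3 (filter on low counts by group, quasi-likelihood test, Benjamini-Hochberg adjustment over 17419 genes, threshold 0.05), without a block. Standard errors were derived from the log2 fold change and the quasi-likelihood F statistic. The depth of 56159110 to 68393177 counts per library puts 3 counts at 0.0439 to 0.0534 CPM before TMM factors.

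All 45 FOX genes matched the RefSeq table (GRCh38.p14), and 44 had an exon length in GENCODE release 29. The alternatives were other normalization factors, other filters, DESeq2 1.42.0, limma-voom (limma 3.58.1), a replicate block, a 2-fold limit and each library left out. The scripts were tested on simulated data. Values in every library are given for FOX genes with an adjusted p under 0.05 and at least 1 CPM in a group. FOX genes are accounted for by name, and from each gene list the 2 called genes that moved most each way, of which some genes are not reported here. AKT1, AKT2, GLI1, CDH1 and ESR1 were added after their values were seen, as were MTHFSD, GMDS and the 3 lncRNAs near FOXQ1. The members and lists were chosen with earlier results of these data known.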

Additional observations from a re-analysis of the deposited data

How the results depend on the processing

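Of the 13 FOX genes called, 9 were called under every alternative run other than the 2-fold limit. FOXD2, FOXO3, FOXK2 and FOXJ3 were not, and FOXO3 also missed the threshold with limma-voom (adjusted p = 0.0536), without a filter on low counts (0.0698) and with the FOXO3B counts added (0.0797), an alternative chosen after seeing the data. FOXK2 (0.0596) and FOXJ3 (0.052) also missed it without that filter. With a 2-fold limit, 2 FOX genes remained, 0 higher and 2 lower, and 1411 of all genes. With each library left out, 10 to 13 FOX genes were called (5 to 8 higher, 4 to 6 lower), and 4181 to 7229 of all genes. Uncalled genes near 0 changed sign: with each library left out, FOXN3 ran from -0.08 to 0.02 (positive without shCTRL replicate 1 or shCCN3 replicate 2), FOXO4 from -0.15 to 0.01 (positive without shCTRL replicate 1) and FOXK1 from -0.01 to 0.07 (negative without shCCN3 replicate 1). With the replicate number as a block, 10 FOX genes and 4887 of all genes were called, 5 FOXM1 targets and 0 of the listed lncRNAs and copies. The deviations of same-numbered libraries from their group means correlated at 0.0891, -0.0256 and -0.0657. The labels give only a number, so whether same-numbered libraries were prepared together is not known. Over the fits that left out 1 library, the counts were 4 to 18 FOXM1 targets, 3 to 7 EMT genes and 0 to 1 of the listed lncRNAs and copies. The last was 0 without a filter, where its median log2 fold change moved from -0.03 to -0.14, and the median was 0.20 with at least 10 counts in every library. The cause of these shifts was not tested. Depth limits the genes under 1 CPM, whose standard errors reached 0.734.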
